A study of Saccharomyces cerevisiae with 12 samples.

Results

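SIP18, GRE1, STF2 and HSP12 are 4 abundant stress transcripts of resting yeast that encode small, very hydrophilic proteins, and their levels are described here in 12 libraries. They are 4 of the 6645 genes read from the deposited table, and they were chosen by their measured levels across the 4 groups, so those levels and their differences are a description. The groups, of 3 libraries each, were oxidized cells and reduced cells sorted from cultures grown for 72 hr, and oxidized cells and reduced cells sorted from cultures grown for 48 hr. Per the study's methods, all cells were haploid wild-type Saccharomyces cerevisiae BY4741 that carried the redox sensor Grx1-roGFP2 on a plasmid. In this sensor a glutaredoxin passes the oxidation state of cellular glutathione to a green fluorescent protein, and cells were sorted by flow cytometry on the ratio of its fluorescence under 2 excitation lasers. The sort therefore recovered the cells that still expressed the plasmid, and each gate is a range of that ratio. The unit is PPM, the reads of a gene divided by the total of its library and given in parts per 1e6, counted in a window of fixed size around the 3′ end of the gene, so that PPM of different genes refer to the same length. A share of the library is reported, so fewer cells that express a gene and less RNA per cell cannot be told apart.

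Hydrophilins are proteins rich in glycine with a high mean hydrophilicity, a family that in plants includes late embryogenesis abundant proteins of drying seeds. They accumulate when water becomes scarce, are largely unfolded in solution, and can protect enzymes and membranes during drying. In yeast, SIP18 and GRE1 encode hydrophilins that are induced by salt and needed for surviving desiccation. STF2 encodes a protein first isolated as a stabilizer of the inhibited mitochondrial ATP synthase, which also helps cells to survive drying, and TMA10 is its paralog. HSP12 encodes a small protein that is disordered in water, folds on lipid membranes and makes them more stable. Many such genes are induced at the end of growth on glucose by the transcription factors Msn2 and Msn4, which bind the stress response element (STRE), and their activity is held down by protein kinase A.

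The proteins have the composition by which hydrophilins are named, so the values below describe the genes and are not a finding about them. Computed from the coding sequences of the RefSeq annotation of assembly R64, the assembly behind sacCer3, they have 79 residues in SIP18, 84 in STF2, 109 in HSP12 and 168 in GRE1, and each is encoded in 1 exon. Glycine makes up 13.1% of GRE1, 12.7% of SIP18 and 11.9% of both HSP12 and STF2, against a median of 4.94% over 6002 yeast proteins. The mean Kyte-Doolittle hydropathy, in which a negative value means hydrophilic, was -1.85 for GRE1, -1.61 for STF2, -1.55 for SIP18 and -1.21 for HSP12, against a median of -0.39. GRE1 ranked 4 of 6002 from the most hydrophilic end, STF2 ranked 12, SIP18 ranked 16 and HSP12 ranked 114. Only 1.25% of proteins combined more than 6% glycine with a hydropathy below -1, the usual definition of a hydrophilin, and the 4 genes and TMA10, grouped here under that name, met it. That definition does not use cysteine. None of these 5 proteins has a cysteine, the residue that thiol oxidation acts on, a property of 27.1% of the 779 yeast proteins between 79 and 168 residues long.

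The promoters differed in their STREs. The motif AGGGG was searched on both strands in the 500 bases before each start codon, so that CCCCT is its reverse complement. HSP12 held 5 copies, a number reached by 0.20% of 6000 yeast promoters of the same length. SIP18 and STF2 held 2 each, as at least 2 were found in 8.13% of promoters, TMA10 held 1, and GRE1 held none, while 34.1% of promoters held at least 1. The 300 bases from 450 to 151 before the start codon hold all of these copies and are shown on the strand of the gene, with STREs in capitals, because the genes differ so widely there. They lie at chrVI:106806-107105 (plus strand) for HSP12, chrXIII:610566-610865 (plus strand) for SIP18, chrVII:508515-508814 (minus strand) for STF2, chrXII:783538-783837 (minus strand) for TMA10 and chrXVI:129289-129588 (minus strand) for GRE1.
HSP12: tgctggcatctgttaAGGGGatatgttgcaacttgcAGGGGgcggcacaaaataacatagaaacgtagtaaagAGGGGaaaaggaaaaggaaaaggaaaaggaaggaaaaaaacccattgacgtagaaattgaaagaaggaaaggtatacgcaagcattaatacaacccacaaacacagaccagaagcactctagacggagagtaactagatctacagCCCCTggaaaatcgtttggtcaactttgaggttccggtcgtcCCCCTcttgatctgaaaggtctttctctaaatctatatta
SIP18: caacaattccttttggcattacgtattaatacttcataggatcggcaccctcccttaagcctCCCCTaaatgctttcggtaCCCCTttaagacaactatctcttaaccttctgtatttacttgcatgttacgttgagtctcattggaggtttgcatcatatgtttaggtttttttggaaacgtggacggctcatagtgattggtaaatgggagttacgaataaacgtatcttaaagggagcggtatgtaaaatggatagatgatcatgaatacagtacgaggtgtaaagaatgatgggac
STF2: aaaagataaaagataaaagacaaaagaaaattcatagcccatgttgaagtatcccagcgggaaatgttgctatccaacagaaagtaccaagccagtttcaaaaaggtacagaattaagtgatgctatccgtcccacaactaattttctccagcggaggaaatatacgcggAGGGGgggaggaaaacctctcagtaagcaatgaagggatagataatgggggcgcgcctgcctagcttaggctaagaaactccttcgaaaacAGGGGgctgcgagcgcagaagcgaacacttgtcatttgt
TMA10: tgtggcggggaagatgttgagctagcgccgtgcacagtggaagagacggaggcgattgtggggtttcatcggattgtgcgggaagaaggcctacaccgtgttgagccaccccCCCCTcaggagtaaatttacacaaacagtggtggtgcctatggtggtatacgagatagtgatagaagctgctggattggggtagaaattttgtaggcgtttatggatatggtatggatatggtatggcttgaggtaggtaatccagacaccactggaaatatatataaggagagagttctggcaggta
GRE1: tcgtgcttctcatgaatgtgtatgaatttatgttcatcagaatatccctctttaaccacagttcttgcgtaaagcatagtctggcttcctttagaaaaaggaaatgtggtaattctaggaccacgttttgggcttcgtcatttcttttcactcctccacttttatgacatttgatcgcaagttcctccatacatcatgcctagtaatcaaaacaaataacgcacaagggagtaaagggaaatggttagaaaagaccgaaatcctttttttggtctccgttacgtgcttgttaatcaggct
A match is a description of the letters and not a measured site.

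STF2 and TMA10 are close copies, and the question of shared reads bears on their values. Their proteins were identical at 54 of 84 aligned residues (64.3%), while SIP18 and GRE1 were identical at 27 of 75 (36.0%). The remaining pairs among SIP18, GRE1, STF2 and HSP12 had 26.6% to 33.9%, not far below that of SIP18 and GRE1. The stretch of 60 coding bases that covers residues 38 to 57 of both STF2 and TMA10 is printed with the bases that differ in capitals, to show how far the copies can be told apart by sequence.
STF2: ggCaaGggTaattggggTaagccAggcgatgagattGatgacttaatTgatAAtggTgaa
TMA10: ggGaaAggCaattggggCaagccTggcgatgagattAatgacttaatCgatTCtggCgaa
Of these 60 bases 50 were identical, and 18 of 20 residues. The longest run shared by the counting windows of STF2 and TMA10 was 12 bases, and that of SIP18 and GRE1 was 9 bases.

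The libraries were shallow. They held 138631 to 169638 reads for oxidized and 141471 to 201379 for reduced cells at 72 hr, and 90403 to 189735 for oxidized and 119178 to 241084 for reduced cells at 48 hr, after duplicates had been removed by molecular identifiers. The 4 genes were well counted all the same, with between 99 reads (GRE1, oxidized, 48 hr, replicate 1) and 3004 reads (HSP12, reduced, 48 hr, replicate 1) per library. Replicate 3 of reduced cells at 72 hr stood apart in its group by the spread of reads, but not by correlation. Its Pearson's r over log2(PPM + 10) was 0.911 with replicate 1 and 0.898 with replicate 2. The other 10 pairs of replicates had 0.848 to 0.909. The chi-square per degree of freedom between its reads and those of the other two was 2.31 in both pairs, against 1.39 to 1.80 for the other 10 pairs of replicates. Differences of the 4 genes that rest on reduced cells at 72 hr are therefore given with and without it. The labels do not say whether replicates came from separate cultures, while the paper calls them biological replicates. The errors measure the spread between these libraries. Genes of a cells summed to 1054 to 1565 PPM and genes of alpha cells to 35.3 to 199 PPM, while the methods describe the strain as MATα.

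At 72 hr all 4 transcripts had a lower mean in oxidized cells than in reduced cells. For 3 of them the libraries of the groups did not overlap. The fit (limma on log2(PPM + 10), Benjamini-Hochberg threshold 0.05) called 4.75% of 4776 tested genes lower and 4.86% of them higher for oxidized cells, and GRE1, STF2 and HSP12 were called lower. Because the genes were chosen on these values, nothing is read from that count.

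GRE1 showed the largest difference of the 4 at this age. It had 1263, 1457 and 1479.6 PPM in oxidized cells, against 2811, 3011 and 2648 PPM in reduced cells. The groups were far apart, and the mean of oxidized cells was 0.496 times that of reduced cells. On the log2 scale the difference was -1.01 (SE 0.16), and -1.05 without replicate 3 of reduced cells. These are RNA levels. At the protein level the paper reports the opposite direction, with Gre1 among the stress proteins raised in oxidized cells, and names no age for it.

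STF2 had 2860.3, 2647 and 2423 PPM in oxidized cells, against 4072, 4446 and 3308 PPM in reduced cells. The groups did not overlap, although replicate 3 of reduced cells lay below the other two. The log2 difference was -0.57 (SE 0.13), and -0.69 without that library. HSP12, the most abundant of the 4, had 6732, 7985 and 8129 PPM in oxidized cells, against 12851, 12229 and 8599 PPM in reduced cells. Replicate 3 of reduced cells again lay close to the oxidized libraries without reaching them. The log2 difference of HSP12 was -0.54 (SE 0.13), and -0.72 without that library, while its call was lost when replicate 1 of reduced cells was left out (-0.43).

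SIP18 was the gene that was not called at 72 hr. It had 2107, 2041 and 2405 PPM in oxidized cells, against 3223, 3047 and 1944 PPM in reduced cells. Here replicate 3 of reduced cells fell below every oxidized library, so the groups overlapped. The log2 difference was -0.29 (SE 0.15), and without replicate 3 of reduced cells it was -0.52 and called. Beside counting error, the SD of the 3 reduced libraries was 5.45 times that expected from counting for SIP18, 8.92 times for HSP12 and 3.79 times for STF2, but 1.41 times for GRE1.

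**Figure D1:**
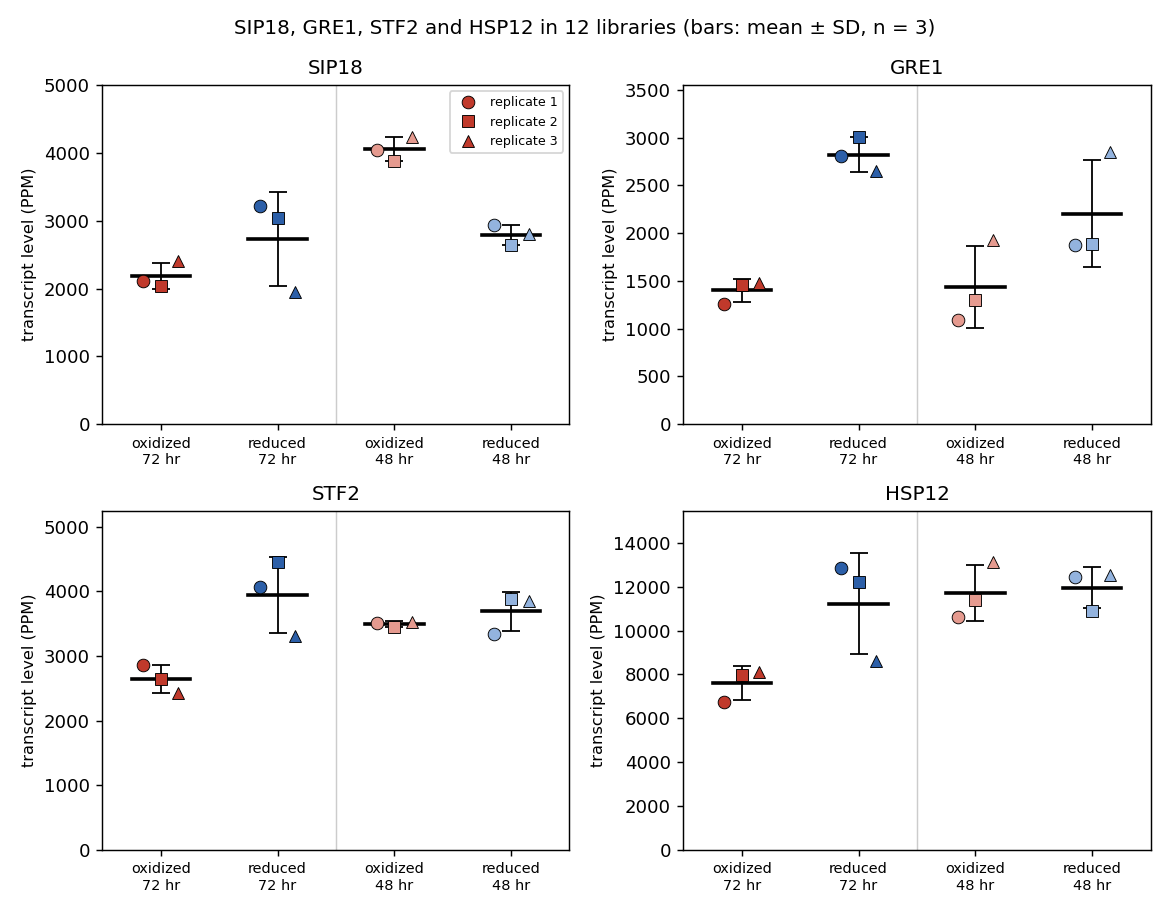
Transcript level in PPM (linear axis from 0) of SIP18, GRE1, STF2 and HSP12 in each library, with oxidized left of reduced cells and 72 hr left of 48 hr. Symbols mark replicates 1, 2 and 3, and bars give the mean and SD of 3 libraries. SIP18 was highest in oxidized cells at 48 hr (3888 to 4243 PPM), GRE1 was lower in oxidized than in reduced cells at 72 hr, and STF2 and HSP12 were lowest in oxidized cells at 72 hr.

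At 48 hr the 4 genes divided, with SIP18 higher and GRE1 lower in oxidized cells. The fit called 1.42% of the tested genes higher and 2.43% lower at this age, and it called 2 of the 4, SIP18 higher and GRE1 lower. SIP18 had 4049, 3888 and 4243 PPM in oxidized cells, against 2933, 2643 and 2805 PPM in reduced cells. These groups were clearly separate, with SDs of 0.958 and 1.07 times the counting error. The log2 difference was 0.54 (SE 0.15), so SIP18 was 1.45 times as abundant in oxidized cells. Its adjusted value lay near the threshold, since the call was lost without oxidized replicate 1 (0.54), oxidized replicate 3 (0.51), reduced replicate 2 (0.50) or reduced replicate 3 (0.54).

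GRE1 had 1095, 1296 and 1924 PPM in oxidized cells, against 1879, 1888 and 2850.1 PPM in reduced cells at 48 hr. Replicate 3 was the highest in both groups, and the oxidized one overlapped the lower reduced libraries. The log2 difference was -0.63 (SE 0.16), and the call was lost without oxidized replicate 1 (-0.45), oxidized replicate 2 (-0.57) or reduced replicate 3 (-0.43).

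STF2 and HSP12 overlapped between the subpopulations at 48 hr. STF2 had 3507, 3449 and 3531 PPM in oxidized cells, against 3335, 3877 and 3850.3 PPM in reduced cells, a log2 difference of -0.07 (SE 0.13). HSP12 had 10630.2, 11402 and 13113 PPM in oxidized cells, against 12460.4, 10899.7 and 12528 PPM in reduced cells, a log2 difference of -0.03 (SE 0.13). Each of these differences was smaller than its standard error.

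Between the ages, SIP18 and HSP12 were called lower at 72 hr in oxidized cells, and in reduced cells none of the 4 was called. In oxidized cells 0.272% of tested genes were called lower and 0.168% higher at 72 than at 48 hr, and SIP18 and HSP12 were among those called lower. The mean of SIP18 was 2184 ± 194 PPM at 72 hr and 4059.6 ± 178 PPM at 48 hr in oxidized cells (SD, n = 3 each), a log2 difference of -0.89 (SE 0.15). In the 12 fits that left out a library it ranged from -0.96 to -0.85 and was called in each. The genes were chosen on these values, so these calls are a description. HSP12 averaged 7616 ± 768 PPM at 72 hr and 11715 ± 1271 PPM at 48 hr in these cells, a log2 difference of -0.62 (SE 0.13). This call was lost without oxidized replicate 3 at 48 hr (-0.54) or oxidized replicate 1 at 72 hr (-0.53). STF2 averaged 2643 ± 219 PPM at 72 hr and 3496 ± 42 PPM at 48 hr, groups that did not overlap but were not called (log2 difference -0.41, SE 0.13). GRE1 was level in oxidized cells, at 1399.8 ± 119 PPM at 72 hr and 1438 ± 432 PPM at 48 hr, with a log2 difference of 0.00 (SE 0.16).

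In reduced cells 1.76% of tested genes were called lower and 0.565% higher at 72 than at 48 hr. None of the 4 was called, and no p is given for them because they were chosen on these values. GRE1 averaged 2823 ± 182 PPM at 72 hr and 2206 ± 558 PPM at 48 hr in reduced cells, a log2 difference of 0.38 (SE 0.16), and 0.43 without replicate 3 at 72 hr. The other log2 differences were 0.09 (SE 0.13) for STF2, -0.06 (SE 0.15) for SIP18 and -0.11 (SE 0.13) for HSP12. Without replicate 3 at 72 hr they were 0.21 for STF2, 0.17 for SIP18 and 0.070 for HSP12, so the sign of the last pair rested on that library.

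The change of the redox difference between the ages was negative for SIP18, GRE1, STF2 and HSP12, and with all libraries it was called for SIP18 only. Whether SIP18 differed from the other genes in this change was not tested. The redox difference at 72 hr minus that at 48 hr was called higher for 0.754% of the tested genes and lower for 0.0209%, which is 1 gene, SIP18. Its value was -0.83 on the log2 scale (SE 0.21), from -0.29 at 72 hr and 0.54 at 48 hr. With a pseudocount of 1 PPM no gene was called lower and with one of 50 PPM 3 genes were, and the call on SIP18 was lost in 9 of 12 fits that left out a library, all but those without reduced replicate 1 at 48 hr, oxidized replicate 3 at 72 hr or reduced replicate 3 at 72 hr. In the 12 fits its value ranged from -1.06 to -0.70. For HSP12 the value was -0.51 (SE 0.18), for STF2 -0.49 (SE 0.19) and for GRE1 -0.38 (SE 0.23), none of them called. Without replicate 3 of reduced cells at 72 hr HSP12 (-0.69) and STF2 (-0.61) were called as well, and GRE1 (-0.43) was not.

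The order of the groups thus differed from gene to gene. For SIP18 it was oxidized at 48 hr (4059.6 ± 178 PPM), reduced at 48 hr (2794 ± 145 PPM), reduced at 72 hr (2738 ± 693 PPM) and oxidized at 72 hr (2184 ± 194 PPM), where the last 3 groups overlapped their neighbours. For GRE1 it was reduced at 72 hr, reduced at 48 hr, oxidized at 48 hr and oxidized at 72 hr, and each neighbouring pair overlapped. For STF2 the means were 3942 ± 580.3 PPM in reduced cells at 72 hr, 3687 ± 305 PPM in reduced cells at 48 hr and 3496 ± 42 PPM in oxidized cells at 48 hr, which overlapped, and then 2643 ± 219 PPM in oxidized cells at 72 hr, which did not. HSP12 had the same split, with overlapping means of 11963 ± 921 PPM (reduced, 48 hr), 11715 ± 1271 PPM (oxidized, 48 hr) and 11226 ± 2297 PPM (reduced, 72 hr), and 7616 ± 768 PPM in oxidized cells at 72 hr. HSP12 ranked 6 of 6645 genes in oxidized cells at 72 hr, against 3 in reduced cells of that age, and GRE1 ranked 103 against 35. In oxidized cells SIP18 ranked 45 at 72 hr, against 16 at 48 hr.

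Ratios within a library do not depend on its scaling, and they separated the pairs of related genes. SIP18 was 1.67, 1.40 and 1.63 times as abundant as GRE1 in the oxidized libraries at 72 hr, against 1.15, 1.01 and 0.734 times in the reduced ones. At 48 hr the ratio was 3.70, 3.00 and 2.21 in oxidized cells, against 1.56, 1.40 and 0.984 in reduced cells. Every oxidized library was thus above every reduced library of its age. TMA10 over STF2 was 1.82, 1.93 and 2.56 in oxidized cells at 72 hr, against 0.793, 0.859 and 0.756 in reduced cells. At 48 hr it was 2.12, 1.86 and 2.55 in oxidized cells, against 1.84, 1.36 and 1.66 in reduced cells. Reduced cells at 72 hr were the group in which STF2 exceeded its paralog. Together, SIP18, GRE1, STF2 and HSP12 took 1.30% to 1.44% of the library in oxidized cells at 72 hr, against 1.65% to 2.30% in reduced cells. At 48 hr they took 1.93% to 2.28% in oxidized cells, against 1.93% to 2.20% in reduced cells, ranges that overlapped. HSP12 made up 51.9% to 60.5% of that sum in the 12 libraries.

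**Figure D2:**
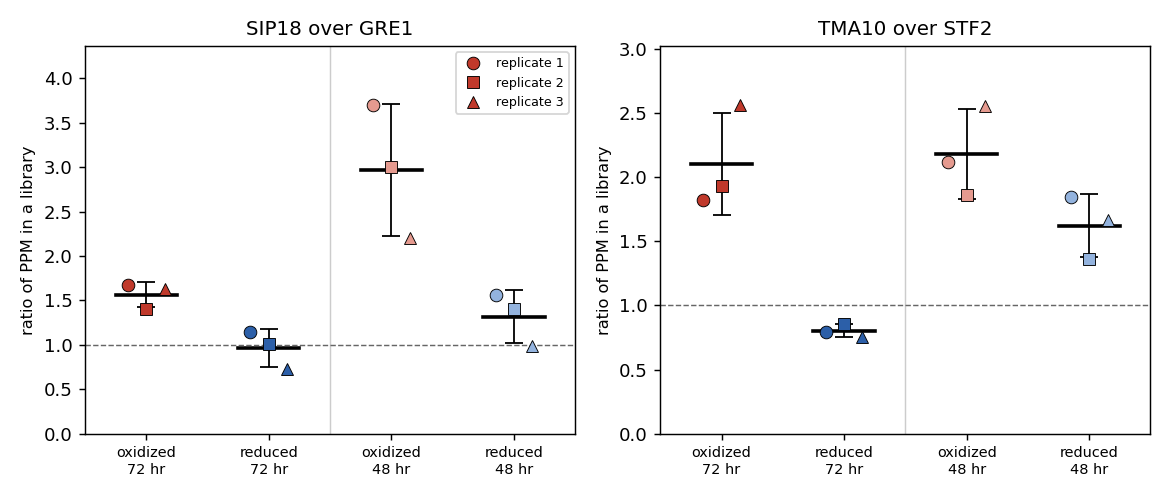
Ratio of PPM within each library (linear axis from 0, dashed line at equality), SIP18 over GRE1 on the left and TMA10 over STF2 on the right, with oxidized left of reduced cells. Bars give the mean and SD of 3 libraries. The SIP18 ratio was higher in oxidized than in reduced cells at both ages, and the TMA10 ratio was below 1 in reduced cells at 72 hr only.

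TMA10, YJL144W and YNL190W, which encode other hydrophilins, were more abundant in oxidized cells at 72 hr. Of the 4 others on a list of yeast hydrophilins, 3 were called higher in oxidized cells at 72 hr (4.86% of all tested genes were) and none lower, with a median log2 difference of 0.77 against -0.11 over all tested genes. TMA10 had 5211, 5099.9 and 6201 PPM in oxidized cells, against 3228, 3817 and 2502 PPM in reduced cells. The groups did not overlap, and the log2 difference was 0.80 (SE 0.14, adjusted p = 2.1e-05 by limma with Benjamini-Hochberg adjustment), or 0.64 without replicate 3 of reduced cells. YJL144W (ROQ1), whose product redirects a ubiquitin ligase to misfolded proteins under stress, had 935, 1039 and 996 PPM in oxidized cells, against 507, 523 and 490.2 PPM in reduced cells. These libraries hardly varied within a group, and the log2 difference was 0.95 (SE 0.17, limma adjusted p = 2.1e-05). YNL190W, which encodes a cell wall protein, had 251, 317 and 295 PPM in oxidized cells, against 179, 113 and 231 PPM in reduced cells. Its log2 difference of 0.74 (SE 0.25, limma adjusted p = 0.043) was no longer called without reduced replicate 1 at 48 hr, any oxidized library at 72 hr or reduced replicate 1 or 2 at 72 hr, and leaving out a library gave values from 0.47 to 0.96. The call was also lost when 1 PPM was added in place of 10 (0.77, limma adjusted p = 0.059) and with no filter (0.74, limma adjusted p = 0.052). NOP6, a factor in making the small ribosomal subunit, was not called (log2 difference -0.17, SE 0.32).

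At 48 hr, when 1.42% of all tested genes were called higher and 2.43% lower, none of these 4 was called. Of them 1 had an unadjusted p under 0.05, TMA10 with a log2 difference of 0.35 (SE 0.14, limma adjusted p = 0.19). Between the ages, TMA10 and YJL144W were called lower in reduced cells, as were 1.76% of all tested genes. None of the first 4 genes was called in those cells. TMA10 averaged 3182 ± 659 PPM at 72 hr and 5936 ± 592 PPM at 48 hr in reduced cells (log2 difference -0.91, SE 0.14, limma adjusted p = 6.9e-06). YJL144W averaged 507 ± 16.4 PPM at 72 hr and 933 ± 94.2 PPM at 48 hr in reduced cells (log2 difference -0.86, SE 0.17, limma adjusted p = 0.00040). Its redox difference changed between the ages by 1.15 (SE 0.23, limma adjusted p = 0.0024), opposite in sign to the change of SIP18.

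**Figure D3:**
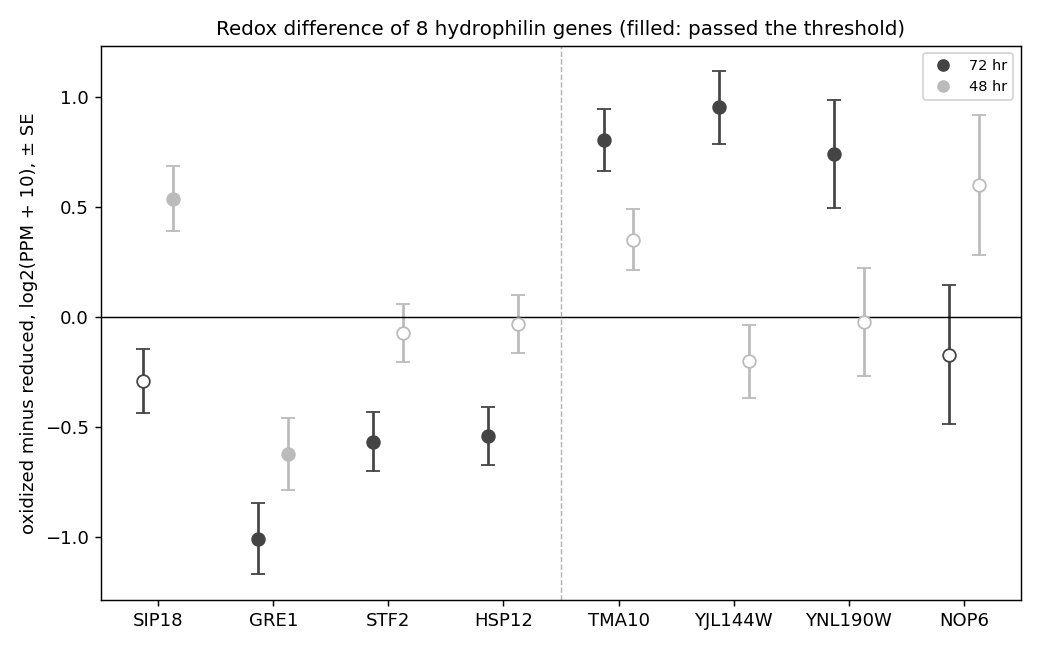
Difference between oxidized and reduced cells in log2(PPM + 10), with SE, at 72 hr (dark, left of each pair) and 48 hr (light), for SIP18, GRE1, STF2 and HSP12 and, right of the dashed line, 4 other hydrophilin genes. Filled points passed the threshold. GRE1, STF2 and HSP12 were filled below 0 at 72 hr, and TMA10, YJL144W and YNL190W above 0.

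Genes of the wider stress response were called in both directions. Of 29 genes on a list of Msn2 and Msn4 targets, 8 had higher and 4 had lower calls for oxidized cells of 72 hr, and 17 were not called, beside 4.86% higher and 4.75% lower among all tested genes, with a median log2 difference of -0.10 against -0.11 over all tested genes. The higher ones were led by SSE2, a chaperone of the Hsp110 family (1.74), the small heat shock chaperone HSP26 (1.63) and the cell wall gene SPI1 (1.63). RTN2, which shapes the endoplasmic reticulum (-1.53), DDR2 (-1.43) and PHM7 (-1.38), a pair of stress genes of unknown function, were the lowest of those called lower. HSP26, the most abundant transcript of the table, had 27892, 26646 and 28531 PPM in oxidized cells, against 8869, 9974 and 8002 PPM in reduced cells at 72 hr. DDR2 had 2246, 3167 and 3142 PPM in oxidized cells, against 7940.2, 8553 and 6469 PPM in reduced cells. The direction of DDR2 was that of HSP12, and the direction of HSP26 was that of TMA10. At 48 hr, when 1.42% of all tested genes were called higher and 2.43% lower, 4 of the 29 were called higher, led by HXK1 (0.92), HSP26 (0.74) and SPI1 (0.62), and 2 lower, PHM7 (-1.44) and DDR2 (-0.76). HXK1 encodes a hexokinase and was also called higher at 72 hr (1.27), and SPI1 lost its call at 48 hr without reduced replicate 1 (0.50).

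Genes of salt and osmotic stress, the condition under which SIP18 and GRE1 were first described, were called in both directions, beside 4.75% lower and 4.86% higher among all tested genes at 72 hr. Of 9, at 72 hr 3 were called lower, the sodium pump ENA1 (-1.56), DDR2 (-1.43) and the glycerol-3-phosphate dehydrogenase GPD1 (-0.97), and 2 higher, HOR7 (0.93) and the aldose reductase GRE3 (0.70). GRE3 lost its call without any one of the oxidized libraries or without reduced replicate 1 or 2 at 72 hr (0.54 to 0.79), and when 1 PPM was added in place of 10 (0.72, limma adjusted p = 0.053). At 48 hr 4 were called lower, against 2.43% of all tested genes, and none higher. These were the glycerol transporter STL1 (-2.55), ENA1 (-1.69), GPD1 (-0.78) and DDR2 (-0.76), where STL1 was listed at 0, 0 and 10.5 PPM in oxidized cells, against 99.6, 50.3 and 52.6 PPM in reduced cells. GPD1 lost its call at 48 hr without oxidized replicate 1 or 3 or any one of the reduced libraries, and ranged from -0.98 to -0.67 with 1 library left out, and it also lost it when only the libraries of the 2 groups were fitted (-0.78, limma adjusted p = 0.056).

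Of 6 stationary phase genes, 3 were called lower in oxidized cells at 72 hr and none higher, SPG1 (-1.33), SPG4 (-0.91) and SPG5 (-0.86), with a median of -0.88 against -0.11 over all tested genes, of which 4.75% were called lower. SPG1 (-1.08) and SPG5 (-0.72) were also called lower at 48 hr, against 2.43% of all tested genes. SPG5 lost this call without oxidized replicate 1 or 2 or reduced replicate 3 (-0.81 to -0.59 with 1 library left out). The products of these genes are needed for survival in stationary phase, and SPG5 acts in assembling the proteasome. None of 7 genes of trehalose metabolism, which makes the sugar that acts beside hydrophilins in dry cells, was called at 72 or 48 hr, with 1 at an unadjusted p under 0.05 at 72 hr and 0 at 48 hr. None of 7 genes of glycogen metabolism was called either, with 0 and 1 at an unadjusted p under 0.05. Among all tested genes 4.75% were called lower and 4.86% higher at 72 hr, and 2.43% lower and 1.42% higher at 48 hr. For INH1 and STF1, the inhibitors of the mitochondrial ATP synthase with which STF2 was first grouped, the log2 differences were -0.22 (SE 0.26) and 0.16 (SE 0.15) at 72 hr, neither called, and at 48 hr 0.10 and 0.38, of which STF1 had an unadjusted p under 0.05. Of 21 regulators of the stress and nutrient response 1 was called at 72 hr, a share near the 4.86% of all tested genes called higher. It was PDE1, which breaks down the cyclic AMP that activates protein kinase A (0.70, SE 0.22, limma adjusted p = 0.031). Its call was lost without oxidized replicate 2 or 3 or reduced replicate 1 or 2 at 72 hr (0.55 to 0.84 with 1 library left out). For the factors themselves, the log2 differences at 72 hr were 1.11 (SE 0.43) for MSN4 and -0.77 (SE 0.36) for MSN2, neither called. Both rested on few reads at that age. MSN4 had 4 to 20 reads per oxidized and 2 to 8 per reduced library, and MSN2 had 6 to 18 and 14 to 30. At 48 hr 0 of the 21 were called, with 2 at an unadjusted p under 0.05, against 4 at 72 hr.

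**Figure D4:**
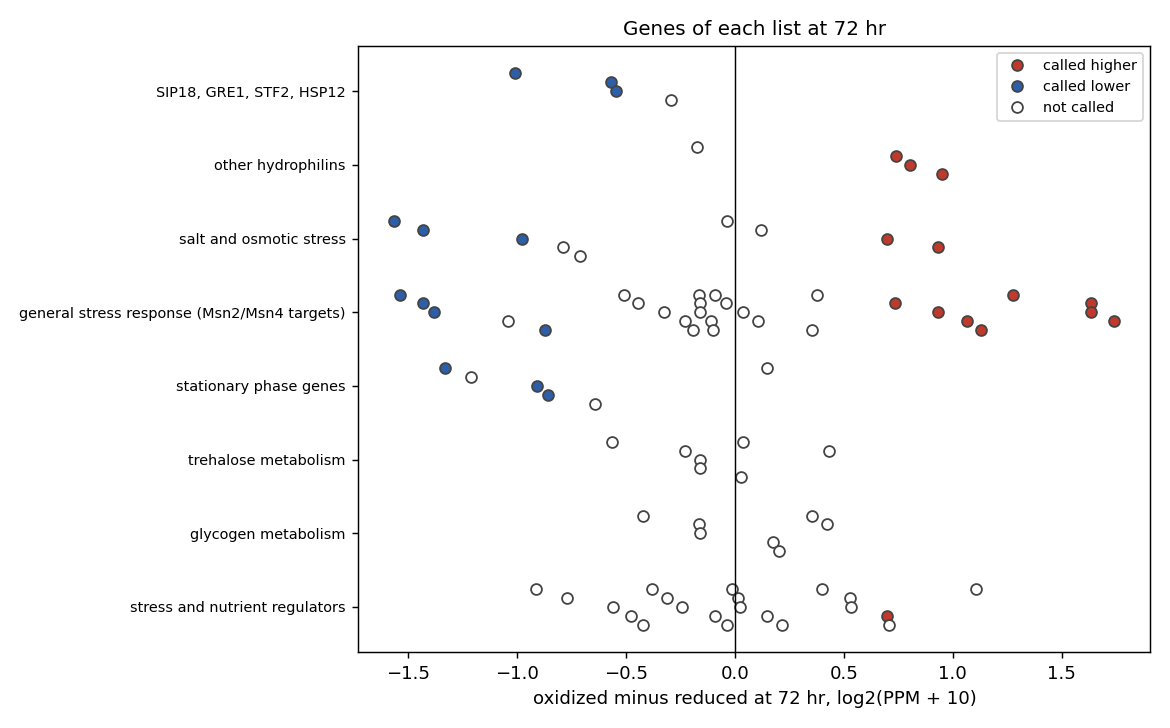
Difference between oxidized and reduced cells at 72 hr in log2(PPM + 10), 1 point for each tested gene of a list, offset vertically within a list for legibility. Red points were called higher, blue points lower and white points were not called. SIP18, GRE1, STF2 and HSP12 lay between -1.01 and -0.29, and the Msn2 and Msn4 targets between -1.53 and 1.74.

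Markers of other cell states were read beside these values. Of 8 genes of newborn daughter cells 0 were called at 72 hr, with 1 at an unadjusted p under 0.05, beside 4.75% lower and 4.86% higher among all tested genes. Their summed level was 1043 to 1165 PPM in oxidized cells, against 714 to 1026 PPM in reduced cells at that age. The sum was 1063 to 1281 PPM in oxidized and 838 to 1158 PPM in reduced cells at 48 hr. Of 13 tested genes of cycling cells, 1 was called at 72 hr, the histone gene HHT1 (-0.69), beside 4.75% lower among all tested genes. The sums of cycling genes at this age were 4869 to 4988 PPM in oxidized cells, against 5096 to 6638 PPM in reduced cells. At 48 hr the sums of cycling genes were 4190.1 to 5137 PPM in oxidized cells, against 4882 to 5412 PPM in reduced cells. No defining marker of daughter cells was at 0 in a whole group, and the mitotic cyclin gene CLB2 was at 0 in all oxidized libraries at 72 hr and all reduced libraries at 48 hr. The part of these cells in the levels of the 4 transcripts was not tested.

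The 4 transcripts did not vary as 1 unit across the 12 libraries. Over log2(PPM + 10), Pearson's r was 0.79 between STF2 and HSP12, 0.75 between SIP18 and HSP12, 0.63 between GRE1 and STF2 and -0.10 between SIP18 and GRE1. Spearman's rho was 0.73, 0.71, 0.63 and 0.01 for these pairs in the same order. STF2 and TMA10 had an r of -0.20. The libraries share their groups, so these values are descriptions with no test. Among the 1805 genes that averaged 100 PPM or more, the 5 most like GRE1 were the glucose transporter gene HXT5 (r = 0.94), the ammonium transporter gene ATO3 (0.93), SNA2 (0.93), EMI1 (0.92) and SPG5 (0.92). HXT5 had 460.4, 620.4 and 643 PPM in oxidized cells, against 1554, 1753 and 1583 PPM in reduced cells at 72 hr, the same low and high groups as GRE1. The 5 most like STF2 were AHC2 (0.91), the proteasome subunit gene RPT3 (0.88), the glutathione transferase gene GTT1 (0.87), SWR1 (0.86) and SPG4 (0.86). HSP12 was followed by IES1 (r = 0.94, rho = 0.72), BUR6 (0.86), the ribosomal protein gene RPS14B (0.85), YDR461C-A (0.84) and SPG4 (0.83). SPG4 was the gene common to both of these sets. It had 1277, 1306 and 1374 PPM in oxidized cells, against 2806, 2813 and 1927 PPM in reduced cells at 72 hr, with replicate 3 of reduced cells again the lowest of its group.

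For SIP18 the nearest genes were YMR175W-A (0.97), COX9 (0.82), a subunit of cytochrome c oxidase, the importin gene SRP1 (0.81), GIP2 (0.80) and the mitochondrial import gene TOM7 (0.79). The first place was held by a neighbour whose counting window, taken around the end of its coding sequence, overlaps that of SIP18 by 297 of 550 bases on the same strand. YMR175W-A had 949, 938 and 1032 PPM in oxidized cells, against 1311, 1180.5 and 986 PPM in reduced cells at 72 hr, and was between 0.387 and 0.507 times SIP18 in all libraries. Reads of the pair cannot be told apart in the overlap. IES1, the gene nearest to HSP12, overlaps its window by 134 bases on the opposite strand and stood at 4.46% to 6.08% of HSP12, and whether strand was used in counting is not stated. ECT1 overlaps the window of STF2 by 231 bases on the opposite strand and stood at 7.95% to 12.7% of STF2. How far the shared windows enter the likeness of IES1 to HSP12 and of YMR175W-A to SIP18 was not tested.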

How the data were processed

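Polyadenylated RNA of sorted cells was primed with oligo-dT carrying molecular identifiers and its 3′ ends were sequenced. Per the study's methods and the labels, the authors demultiplexed with bcl2fastq 2.17, mapped reads with bowtie2 (default settings) to sacCer3, kept 1 read per identifier, counted those in a window that reaches 350 bp before and 200 bp past each termination site, and deposited PPM, which is an RPM scale and was recorded here under a unit of other kind. The bowtie2 version, annotation and strand use are not given in the sources used here. Of the table, 553 genes on comma-separated lines were split, 2 genes broken over lines were left out and 6645 were kept. Whole reads, read off from the spacing of the PPM values, served only to describe depth and counting error.

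The 4776 genes that averaged 20 PPM or more were tested as log2(PPM + 10) with limma 3.58.1 in R 4.3.3 (lmFit, eBayes with trend, 4 group means, no block, 12 libraries), adjusted by Benjamini-Hochberg within each comparison at 0.05. "Called" means past this threshold. The fit was run on simulated data with the same spread beyond counting error for every gene. That run does not cover genes with another spread. The pseudocount shrinks the fold changes of genes with few reads. SD refers to 3 libraries. The members and gene lists were chosen with earlier results of these data known. Named were the 4 genes, TMA10, the 5 genes most like each by Pearson's r, genes with overlapping windows, and from each list up to 3 called genes per direction at each age. Outside this rule, YJL144W, YNL190W, NOP6, MSN2, MSN4, INH1 and STF1 were named after their values were seen, as members of their lists. Promoters and proteins were read from the RefSeq genome with Biopython 1.88. Alternatives were pseudocounts of 1 and 50 PPM, no filter, a minimum of 50 PPM, median-of-ratios scaling, a replicate block, only the libraries of the 2 groups compared, and each library left out.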

Additional observations from a re-analysis of the deposited data

Results flagged for a closer look

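The redox difference itself differed between the ages for 37 of the 4776 tested genes by the interaction term of the limma fit, and 6 of those are named here. SIP18 changed by -0.83 (SE 0.21), from a log2 difference of -0.29 at 72 hr and 0.54 at 48 hr, and its levels were among those that chose the gene. The call on SIP18 was lost in 9 of 12 fits that left out a library. The other 5 genes changed in the opposite direction, which was that of 36 of the 37 genes. YJL144W changed by 1.15 (SE 0.23, limma adjusted p = 0.0024), with log2 differences of 0.95 at 72 hr and -0.20 at 48 hr. HOR7, a stress gene, changed by 0.92 (SE 0.17, limma adjusted p = 0.0011), with 0.93 at 72 hr and 0.01 at 48 hr. SSE2 changed by 1.57 (SE 0.30, limma adjusted p = 0.0011), with 1.74 at 72 hr and 0.17 at 48 hr. HSP26 changed by 0.89 (SE 0.16, limma adjusted p = 0.00085), with 1.63 at 72 hr and 0.74 at 48 hr. SPI1 changed by 1.01 (SE 0.20, limma adjusted p = 0.0014), with 1.63 at 72 hr and 0.62 at 48 hr. No test for a single outlying value was run on groups of 3 libraries.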

How the results depend on the processing

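Of 136 values of the 4 genes under the alternatives other than leaving out a library, 131 kept their side of the threshold. Among these were changes of sign with a shift smaller than the SD of the fit. With median-of-ratios scaling HSP12 at 48 hr was 0.03, against -0.03. STF2 between the ages in reduced cells was -0.0013 with that scaling, against 0.09. The calls lost were those of SIP18 at 48 hr without a filter (0.54), of the change of its redox difference with a pseudocount of 1 PPM (-0.83) or no filter (-0.83), of GRE1 at 48 hr with 1 PPM (-0.63) and of HSP12 between the ages in oxidized cells without a filter (-0.62). The cause was not tested. With 1 PPM, 12 genes were called between the ages in oxidized cells, against 21 with 10 PPM. Median-of-ratios scaling called 1 gene of trehalose metabolism at 72 hr, against 0, and moved the median of all genes by less than 0.1. For the redox difference it called 262 genes higher and 186 lower at 72 hr, against 232 and 227, and 78 and 95 at 48 hr, against 68 and 116. It called 3 genes higher and 13 lower between the ages in oxidized cells, against 8 and 13, and 15 higher and 111 lower in reduced cells, against 27 and 84.

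With 1 library left out, the genes called numbered 320 to 491 at 72 hr, 103 to 189 at 48 hr (103 without reduced replicate 1), 9 to 22 between the ages in oxidized cells, 61 to 127 in reduced cells and 23 to 47 for the change of the redox difference. In oxidized cells the count was 11, 12 or 9 without replicate 1, 2 or 3 at 72 hr, in reduced cells 72 or 61 without replicate 2 or 3 at 48 hr and 68 without replicate 1 at 72 hr, and for the change 23 or 24 without oxidized replicate 1 or 3 at 72 hr. The log2 difference of SIP18 ranged from -0.52 to -0.16 at 72 hr, 0.50 to 0.57 at 48 hr and -0.20 to 0.17 between the ages in reduced cells, and the change of its redox difference from -1.06 to -0.70. GRE1 ranged from -0.85 to -0.43 at 48 hr and -0.18 to 0.23 between the ages in oxidized cells. HSP12 ranged from -0.72 to -0.43 at 72 hr, -0.69 to -0.53 between the ages in oxidized and -0.22 to 0.070 in reduced cells, and the change of its redox difference from -0.69 to -0.40. For STF2 that change ranged from -0.61 to -0.40. Stationary phase genes called at 48 hr numbered 1 to 2 and regulators called at 72 hr 0 to 2.

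Replicate numbers were shared by the groups. Deviations of same-numbered libraries correlated at -0.09 to -0.02 at 72 hr, against -0.03 to 0.07 for different numbers. At 48 hr the values were 0.00 to 0.08 for the same number, against -0.11 to 0.04 for different numbers. The labels do not say whether libraries of the same number came from the same sort, so the main fit assumed no pairing. A replicate block gave 450 called genes at 72 hr, 176 at 48 hr, 21 and 109 between the ages and 36 for the change, and it changed no call on the 4 genes. Depth limits low genes, since 1 read was worth 4.15 to 11.1 PPM.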
